A study of Bos taurus with 6 samples.

Results

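Transcripts of bovine late morulae injected with a small interfering RNA against RBPJ were compared with those of control embryos at the same stage, 6 days after in vitro fertilization. The comparison rested on 4 of the 6 libraries of polyadenylated RNA in the series, 2 from RBPJ knockdown embryos and 2 from controls. The control embryos had received a nonspecific small interfering RNA, so every group had been injected. The remaining 2 libraries came from NOTCH1 knockdown embryos. They entered the fit and are given for reference. Each library was made from a pool of 15 whole embryos, with no separation of cells, so that fewer cells of a type and less RNA per cell cannot be told apart. Sequences and doses of the small interfering RNAs are not stated in the labels. The labels do not say that the pools of a group came from separate collections, so p-values cover no more than the spread among the libraries at hand, and this spread may be technical. Of 17922 rows of the deposited table, 15371 carried a gene name, and 12101 of these averaged at least 10 over all 6 libraries and were tested.

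RBPJ is the DNA-binding protein through which the NOTCH pathway reaches its genes. A ligand of the Delta or Jagged family on a neighbouring cell leads to cleavage of the NOTCH receptor, and the freed intracellular part binds RBPJ on DNA together with a Mastermind coactivator. Without that part, RBPJ can hold corepressors at the same sites. In the late morula the outer cells turn towards the trophectoderm, which later forms the placenta, and the inner cells give rise to the epiblast and the hypoblast, from which the yolk sac lining derives.

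The deposited values look like read counts that the authors scaled, and they are called scaled counts here. Where a pair of values is given for a group, replicate 1 precedes replicate 2. Library totals ran from 10365695 to 10815554, and the approximate depth behind them from 9620000 to 13700000 reads, highest in RBPJ knockdown replicate 1. The median log2 fold change of RBPJ knockdown against control was -0.00, with 6019 genes higher and 6082 lower by sign. The median size of a log2 fold change was 0.135, smaller than the median difference between the control replicates, at 0.221, or between the RBPJ knockdown replicates, at 0.182. Among the 8457 genes that averaged at least 100, the same figures were 0.108, 0.180 and 0.144.

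RBPJ fell in the embryos injected against it. The control libraries held 447 and 391, and the knockdown libraries held 121 and 94.5. Both knockdown libraries lay below both controls, and the gap between the groups was wider than the gap within either. The fold change was 0.257, which on the log2 scale is -1.96 (standard error 0.18, limma adjusted p = 0.00149). The NOTCH1 knockdown libraries held 361 and 400, so RBPJ was low in its own knockdown only, and the direct difference between both knockdowns was -1.82 on the log2 scale (standard error 0.18, limma adjusted p = 0.00332). RBPJ was the 1 gene called of the 12101 tested, a share of 0.00826%. Without a trend of the variance on expression level its call was lost (limma, adjusted p = 0.332).

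More genes passed once the replicate number was added to the model as a second factor, called the replicate block here. It was added because deviations of same-numbered libraries from their group means were correlated, at 0.149 to 0.213. The labels do not say what a number marks. This pairing was thus taken from these same data, and the further calls depend on it. With the block limma called 12 genes, 0.0992% of those tested, of which 8 were higher and 4 lower in the RBPJ knockdown. Below, a gene is said to have passed with the block where its adjusted p was under 0.05 in that fit. Over all genes, 340 were higher and 184 lower at an unadjusted p below 0.05 without the block, 2.81% and 1.52% of those tested. Both knockdown libraries lay above both controls for 1853 genes (15.3%) and below both for 2026 genes (16.7%). With 2 libraries against 2, groups that do not differ give shares near these on average. The 524 genes at an unadjusted p below 0.05 (limma) were also fewer than that threshold gives on average when no gene differs. Only 6 genes that averaged at least 100 and had groups that did not overlap were more than 2-fold higher on the fitted scale, and only RBPJ was more than 2-fold lower.

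**Figure D1:**
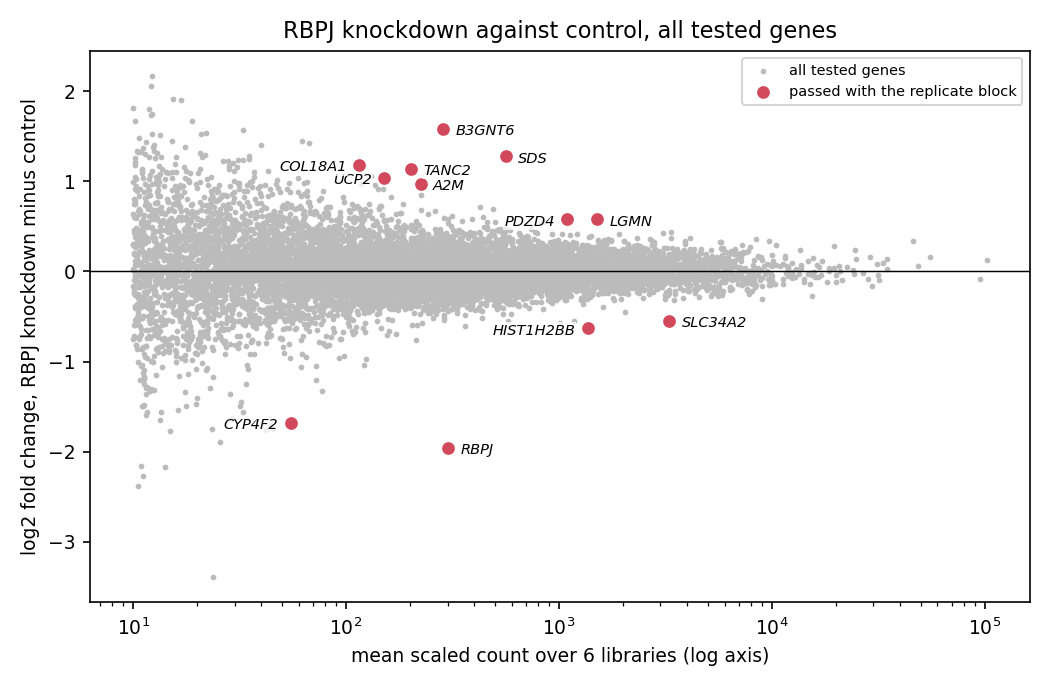
Log2 fold change of RBPJ knockdown against control (vertical axis) plotted on the mean scaled count over the 6 libraries (horizontal axis, logarithmic), with 1 point for each of the 12101 tested genes. The 12 genes that passed with the replicate block are in red, with RBPJ at -1.96 and B3GNT6 at 1.58, while most other genes past 1 or -1 have a mean under 100.

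The NOTCH receptors and ligands showed no call. Of 12 listed genes 8 could be tested, 5 higher and 3 lower by sign, with a median log2 fold change of 0.16 that turned to -0.15 without replicate 1 of the control. None passed with or without the block (limma), and none had an unadjusted p below 0.05. The groups did not overlap for 4 of them, 2 in each direction (25.0% each), beside 15.3% of all genes above both controls and 16.7% below both. The receptor NOTCH4 was higher in both knockdown libraries, with 34.8 and 38.2 in controls and 46.1 and 52.3 in the knockdown (log2 fold change 0.42, standard error 0.30). The ligand JAG2 held 1186 and 1170 in controls and 1267 and 1393 in the knockdown (0.17, standard error 0.11). JAG1, another Jagged ligand, was lower, with 281 and 335 against 253 and 246 (-0.30, standard error 0.17). DLL3, a divergent ligand of the Delta family, held 108 and 104 in controls and 76.1 and 87.3 in the knockdown (-0.37, standard error 0.25).

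The other 4 tested members overlapped between the groups. NOTCH1 was uneven among replicates, at 69.6 and 140 in controls and 50.0 and 125 in the RBPJ knockdown, where its log2 fold change was -0.31 (standard error 0.42). Its sign turned without replicate 2 of the control (0.18) or replicate 1 of the RBPJ knockdown (0.34). The NOTCH1 knockdown libraries held 48.0 and 49.5, close to replicate 1 of the RBPJ knockdown. The receptor NOTCH2 held 193 and 129 in controls and 199 and 160 in the knockdown, and NOTCH3 held 46.4 and 69.9 against 41.5 and 125. DLK2, a Delta-like protein, held 52.9 and 108 against 77.7 and 91.4. The ligands DLL1 and DLL4 stayed under the minimum mean: DLL1 held 9.50 and 8.73 in controls and 0.769 and 4.10 in the RBPJ knockdown. DLK1 and DNER were under it too.

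Cofactors of RBPJ were close to the control. Of 10 tested coactivators 5 were higher and 5 lower by sign, with a median of -0.00, and none passed (limma, with 1 lower at an unadjusted p below 0.05). That gene was MED12, a Mediator kinase module subunit, with 1382 and 1478 in controls and 1243 and 1055 in the knockdown (log2 fold change -0.32, standard error 0.13). The histone acetyltransferases EP300 and KAT2B also had groups that did not overlap, EP300 at 4994 and 5950 against 6217 and 5984 and KAT2B at 1159 and 1095 against 1010 and 939. MAML1, the Mastermind protein of the activated complex, held 417 and 403 in controls and 409 and 309 in the knockdown. Its relative MAML2 held 14.8 and 16.4 against 11.5 and 20.5, and MAML3 stayed under the minimum mean. CREBBP, KAT2A, CDK8 and SNW1 overlapped between the groups, with log2 fold changes from -0.15 for CDK8 to 0.14 for CREBBP.

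All 21 listed corepressors were tested, 10 higher and 11 lower by sign, with a median of -0.00. None passed (limma), and 2 were higher at an unadjusted p below 0.05. SPEN, the large scaffold that recruits histone deacetylases to RBPJ, held 913 and 1078 in controls and 1251 and 1235 in the knockdown (log2 fold change 0.32, standard error 0.12). TLE3, a Groucho corepressor, held 1123 and 1101 against 1394 and 1331 (0.29, standard error 0.11), and its relative TLE1 held 456 and 663 against 711 and 682. HDAC3 (-0.19) and TBL1XR1 (-0.14), both of the NCOR complex, were below both controls. Members whose groups overlapped had log2 fold changes between -0.14 for L3MBTL3, a methyl-lysine reader that binds RBPJ, and 0.21 for CTBP1.

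NOTCH target genes lay on both sides of the control. Of 22 listed, 17 were tested, 10 higher and 7 lower by sign, with a median of 0.13, and none passed with or without the block (limma). At an unadjusted p below 0.05 there were 2 higher and 1 lower. Groups did not overlap for 4 higher and 2 lower members, 23.5% and 11.8%, beside 15.3% and 16.7% of all genes. The median became -0.02 without replicate 1 of the RBPJ knockdown.

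Among the HES and HEY genes, a family with members widely used as readouts of the pathway, values lay on both sides. Whether each listed member responds to NOTCH in these embryos was not tested. HES1 held 275 and 345 in controls and 348 and 367 in the knockdown, just above both controls (log2 fold change 0.21, standard error 0.16). HES2 held 50.7 and 67.6 against 73.8 and 85.2 (0.43, standard error 0.29). HEYL held 87.9 and 52.3 against 91.5 and 132 (0.69, standard error 0.31), with replicate 1 of the knockdown only just above replicate 1 of the control. HEY2 was lower in both libraries, with 72.9 and 50.2 against 39.2 and 43.1 (-0.55, standard error 0.33). HEY1 overlapped, with 116 and 163 against 137 and 231. HES6 and HES7 stood at small scaled counts, with overlapping groups for HES6 (0.13) and HES7 uneven between replicates, at 8.22 and 62.5 against 4.39 and 35.9. HES4, HES5 and NRARP, a feedback inhibitor, stayed under the minimum mean.

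Inhibitors of basic helix-loop-helix factors in the list lay on opposite sides. ID1 held 57.1 and 74.1 in controls and 108 and 97.5 in the RBPJ knockdown, with both libraries above both controls (log2 fold change 0.65, standard error 0.27). ID3 held 47.6 and 51.0 in controls and 9.23 and 24.7 in the knockdown, with both below (-1.63, standard error 0.65), and ID2 overlapped. MYC, the growth regulator, overlapped too, at 93.0 and 115 against 137 and 102. The NOTCH1 knockdown libraries had 61.2 and 46.5, below every library of the other groups. CDKN1A, a cyclin-dependent kinase inhibitor, held 260 and 193 against 214 and 283, NFKB2 held 454 and 554 against 491 and 725, and the protease gene PLAU held 173 and 143 against 149 and 98.7. CCND1 was close to level, at 0.16 (standard error 0.57).

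**Figure D2:**
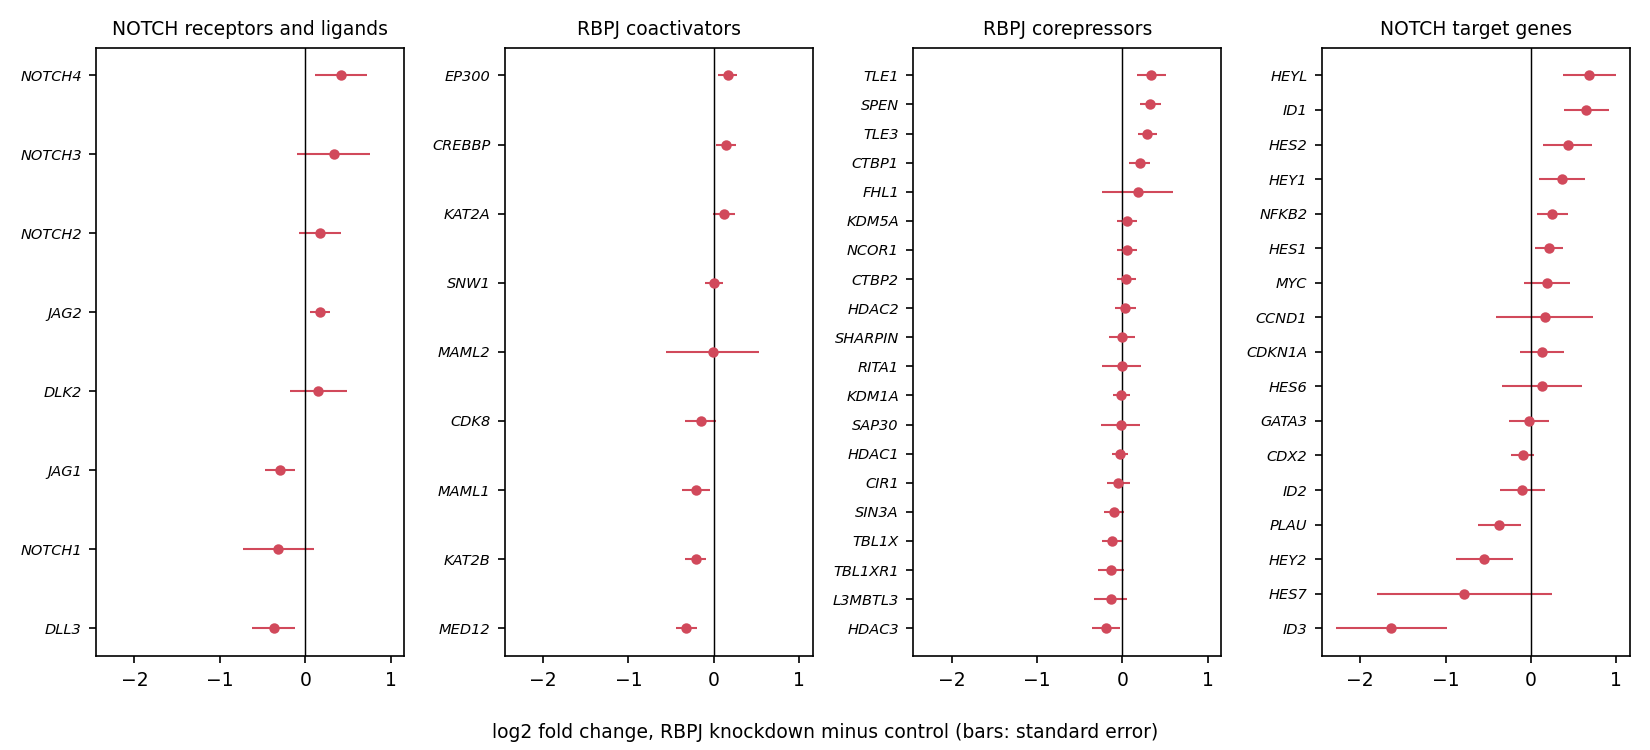
Log2 fold change of RBPJ knockdown against control (horizontal axis, points) with its standard error (bars) for tested NOTCH receptors and ligands, RBPJ coactivators, RBPJ corepressors and NOTCH target genes, 1 gene per line. Coactivators and corepressors lie between -0.32 and 0.34, whereas targets run from -1.63 for ID3 to 0.69 for HEYL.

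Of the steps that lead to RBPJ, receptor cleavage and glycosylation had 12 tested genes, 6 higher and 6 lower by sign, with a median of -0.01 and no unadjusted p below 0.05. NCSTN, a subunit of the gamma-secretase that frees the intracellular part, had a log2 fold change of -0.12, and RFNG, a Fringe glycosyltransferase, had 0.23. Trafficking and turnover had 14 tested genes, 11 higher and 3 lower, with a median of 0.05. NUMBL, a relative of the NOTCH inhibitor NUMB, held 78.1 and 121 in controls and 151 and 224 in the knockdown (0.91, standard error 0.26, limma adjusted p = 0.983). NEURL1, a Neuralized ubiquitin ligase that acts on ligands, held 31.4 and 37.9 against 23.1 and 10.6 (-1.09, standard error 0.47). None of these lists had a called member.

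The 8 genes that passed upward with the block were of unlike kinds. B3GNT6, a glycosyltransferase of mucin-type glycans, held 117 and 106 in controls and 427 and 264 in the RBPJ knockdown, a 2.99-fold difference (log2 fold change 1.58, limma adjusted p with the block 0.000137). SDS, serine dehydratase, which turns serine into pyruvate, held 358 and 424 against 1108 and 806 (1.28, limma adjusted p with the block 0.00577). TANC2, a scaffold protein, held 135 and 112 against 319 and 234 (1.14, limma adjusted p with the block 0.00577). In each of these the lowest knockdown library stood well above the highest control.

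COL18A1, the chain of a basement membrane collagen, held 67.6 and 44.8 in controls and 178 and 89.3 in the knockdown, where replicate 1 was higher in both groups (log2 fold change 1.18, limma adjusted p with the block 0.0482). UCP2, a carrier of the mitochondrial inner membrane, held 94.1 and 78.4 against 208 and 152 (1.04, limma adjusted p with the block 0.0482). A2M, a secreted inhibitor of many proteases, held 148 and 140 against 249 and 323 (0.97, limma adjusted p with the block 0.0291). LGMN and PDZD4 were less shifted, with tight controls for LGMN. LGMN, the lysosomal protease legumain, held 1293 and 1320 against 1800 and 2110 (0.58, limma adjusted p with the block 0.0213). PDZD4, a PDZ domain protein, held 773 and 871 against 1250 and 1202 (0.58, limma adjusted p with the block 0.036).

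Downward, 3 genes passed with the block beside RBPJ. CYP4F2, a cytochrome that hydroxylates fatty acids, held 90.3 and 68.4 in controls and 31.0 and 18.2 in the knockdown, a fold change of 0.312 (log2 fold change -1.68, limma adjusted p with the block 0.036). HIST1H2BB, a histone H2B gene with near-identical copies whose reads the values cannot separate, held 1948 and 1437 against 1276 and 914 (-0.63, limma adjusted p with the block 0.036). SLC34A2, a sodium-phosphate cotransporter, held 4173 and 3948 against 3452 and 2222 (-0.55, limma adjusted p with the block 0.0482). Without the block the 11 genes other than RBPJ had limma adjusted p values of 0.544 to 0.983.

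**Figure D3:**
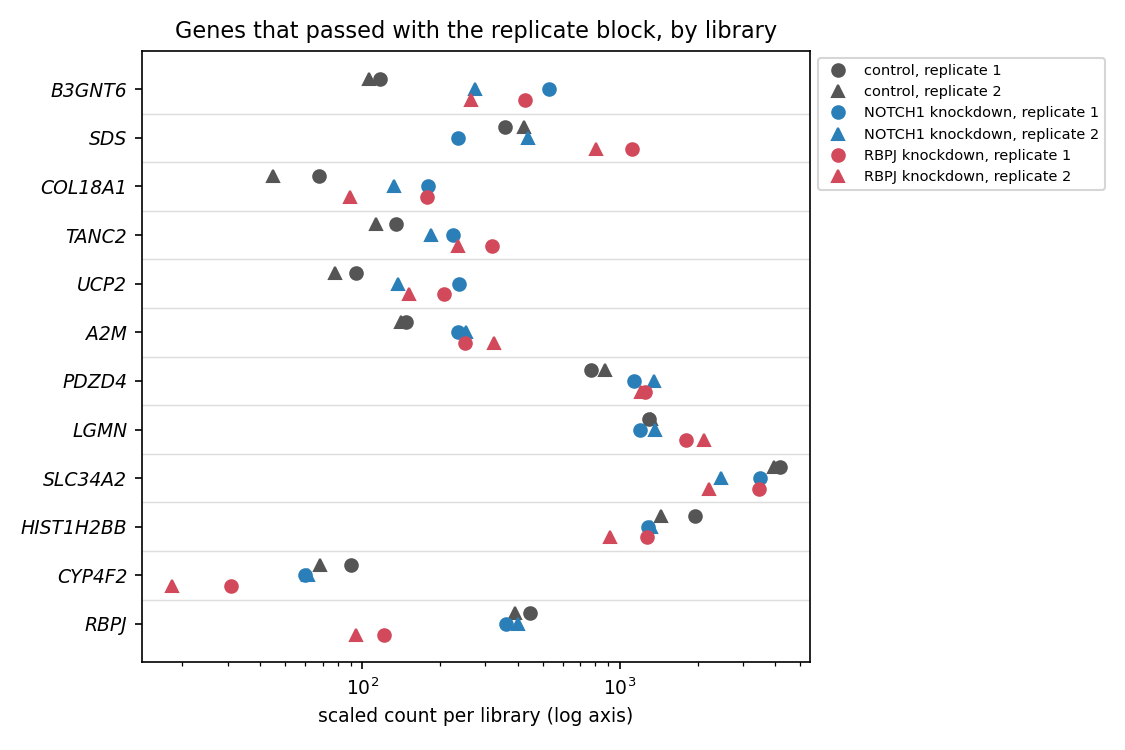
Scaled count (horizontal axis, logarithmic) of the 12 genes that passed with the replicate block in each of the 6 libraries, coloured by group, with circles for replicate 1 and triangles for replicate 2. RBPJ knockdown points lie outside the control range for all 12, which were picked by this same comparison. NOTCH1 knockdown points lie on either side of the control range for SDS and LGMN, and below and within it for RBPJ.

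The NOTCH1 knockdown shares the control libraries, so its values are set beside these without counting agreement. There, B3GNT6 stood at 527 and 272, COL18A1 at 180 and 132, UCP2 at 236 and 138, PDZD4 at 1132 and 1353, A2M at 234 and 253 and TANC2 at 225 and 184. HIST1H2BB stood at 1282 and 1321 and SLC34A2 at 3482 and 2464, below both controls. SDS stood at 235 and 438 and LGMN at 1192 and 1368, for both genes on either side of the control range. The direct contrast of RBPJ knockdown against NOTCH1 knockdown called 1 gene, RBPJ, without the block (0.00826%) and 15 with it (0.124%). With the block SDS (log2 difference 1.55, limma adjusted p 0.000506) and LGMN (0.61, limma adjusted p 0.00626) were higher in the RBPJ knockdown than in the NOTCH1 knockdown. CYP4F2, at 60.0 and 61.7 in the NOTCH1 knockdown, differed by -1.32 and did not pass (limma, adjusted p with the block 0.105).

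These calls changed when single libraries were left out. Each omission leaves the block fit fewer residual degrees of freedom than its 2 with all libraries. More genes than the 12 passed in every omission, so these fits say little about a single call. B3GNT6 and RBPJ passed with the block whichever of the 6 libraries was left out, whereas each of the other 10 lost its call in at least 1 omission. Without replicate 1 of the RBPJ knockdown 19 genes passed, 7 of them among the 12, and without replicate 2 of it 25 passed, 6 of them among the 12. Without the variance trend none passed with the block (limma), with 815 genes at an unadjusted p below 0.05.

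Genes with a small p that did not pass in either fit are given as values. MYH14, a nonmuscle myosin heavy chain, held 32.7 and 51.3 in controls and 118 and 106 in the RBPJ knockdown (log2 fold change 1.43, standard error 0.30), and 50.1 and 43.1 in the NOTCH1 knockdown. CYP27B1, the enzyme that activates vitamin D, held 21.1 and 14.2 against 52.3 and 54.4. RLIM, an X-linked ubiquitin ligase, held 336 and 396 against 533 and 576 (0.60, standard error 0.15). These 3 were above the NOTCH1 knockdown as well as the control in both libraries. SGPL1, the lyase of sphingosine 1-phosphate, held 590 and 696 in the control, 868 and 1018 in the RBPJ knockdown and 910 and 967 in the NOTCH1 knockdown. PELI3, a Pellino ubiquitin ligase, held 136 and 160 against 236 and 302, and FAM160A1 and KLHL29 had log2 fold changes of 0.68 and 1.40.

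On the lower side LIN52, a subunit of the MuvB complex that controls cell cycle genes, held 159 and 219 in controls and 97.8 and 91.9 in the RBPJ knockdown (log2 fold change -0.97, standard error 0.23). NOTCH1 knockdown libraries had 84.6 and 91.0. RASA2, which turns off RAS, held 211 and 219 against 131 and 134 (-0.70, standard error 0.19). ARL6IP1, an endoplasmic reticulum membrane protein, held 2596 and 2174 against 1785 and 1693 (-0.45, standard error 0.12), and EPPK1, the keratin linker epiplakin, held 1084 and 1362 against 958 and 692. Several genes at small scaled counts had larger fitted changes: CNGB3 held 49.6 and 48.0 against 17.7 and 14.4, DMRTC2 held 46.5 and 46.8 against 8.46 and 16.4, and TMEM171 held 15.6 and 14.8 against 1.97 and 2.24. TMEM171 stood at 13.5 and 15.1 in the NOTCH1 knockdown. GRO1, the chemokine gene CXCL1, held 26.4 and 35.9 in the control, 3.08 and 11.3 in the RBPJ knockdown and 4.08 and 4.31 in the NOTCH1 knockdown.

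Further genes with a mean of at least 100 and groups that did not overlap are given by the size of their change. KRT6A, a keratin, held 90.8 and 107 in controls and 121 and 352 in the RBPJ knockdown, so that replicate 2 carried its log2 fold change of 1.06. ZCCHC12 held 72.9 and 162 against 247 and 172, SERPINA5, a serine protease inhibitor, 69.7 and 115 against 138 and 221, and PHLDB2 84.5 and 70.5 against 210 and 111. The lowest after RBPJ and LIN52 were SECISBP2L, at 210 and 141 against 118 and 93.4, and RASA2. CHRD, the secreted BMP antagonist chordin, held 137 and 142 in controls and 66.0 and 112 in the knockdown (-0.69, standard error 0.27). UBL4A, AIFM2, FBXO34, MEP1B and LY6G6E had log2 fold changes of -0.66 to -0.67.

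Hypoblast markers lay above the control. Of 22 tested members 19 were higher and 3 lower by sign, with a median log2 fold change of 0.34, and both knockdown libraries were above both controls for 12 (54.5%, beside 15.3% of all genes) and below both for 0. With the block 2 passed, LGMN and COL18A1, and 9 were higher at an unadjusted p below 0.05 without it. Single members ran from -0.69 to 1.18. As for all lists here, the members were chosen with earlier results of these data known. After subtracting each gene's own mean, the list's level was -0.25 and -0.12 in the control libraries and 0.13 and 0.11 in the RBPJ knockdown libraries. It was 0.03 and 0.13 in the NOTCH1 knockdown.

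The transcription factors that mark the hypoblast were not called but mostly stood higher. GATA6, which specifies the lineage, held 7103 and 9492 in controls and 10425 and 10360 in the RBPJ knockdown (log2 fold change 0.34, standard error 0.12). SOX17 held 91.9 and 133 against 161 and 208 (0.72, standard error 0.24), and GATA4 held 59.1 and 46.9 against 78.4 and 90.3 (0.67, standard error 0.27). In all 3 the groups did not overlap. PDGFRA, a receptor of the lineage, overlapped, at 918 and 945 against 995 and 878. The list's median ran from 0.22 to 0.33 when libraries were left out in turn, lowest without replicate 1 of the control. Among the 16 members with a mean of at least 100 it was 0.34.

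Basement membrane and matrix genes, which share NID2, COL18A1 and other members with the hypoblast list, had 38 tested members, 27 higher and 11 lower by sign, with a median of 0.21. Groups did not overlap for 13 higher (34.2%, beside 15.3% of all genes) and 1 lower (2.63%, beside 16.7%). COL18A1 passed with the block. NID2, the basement membrane linker nidogen-2, held 2748 and 2309 in controls and 3318 and 3463 in the RBPJ knockdown (0.43, standard error 0.11). LAMA5, a laminin chain, held 365 and 325 against 588 and 431 (0.55, standard error 0.19), and PLOD1, a collagen lysyl hydroxylase, held 31.1 and 26.8 against 47.8 and 57.5. FN1, fibronectin, held 37166 and 38800 against 53316 and 43166 (0.34, and 0.09 after quantile normalization). In the NOTCH1 knockdown the list's median against control was 0.21 too. NID2 stood there at 3206 and 3429, LAMA5 at 617 and 444 and FN1 at 59510 and 45873. In the RBPJ knockdown the list median ran over omitted libraries from 0.12 (without replicate 1 of the control) to 0.22.

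Secreted plasma proteins, typical products of extraembryonic endoderm and liver, had 14 tested members, 11 higher and 3 lower, with a median of 0.15 and A2M as the member that passed with the block. CLU, the chaperone clusterin, held 185 and 344 in controls and 321 and 469 in the knockdown, with replicate 2 higher in both groups.

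Pluripotency markers were nearly level by their median, though more were higher than lower. Of 27 tested, 20 were higher and 7 lower by sign, with a median of 0.05. None passed (limma, 4 higher at an unadjusted p below 0.05, beside 2.81% of all genes). Both knockdown libraries lay above both controls for 6 (22.2%, beside 15.3% of all genes) and below both for 4 (14.8%, beside 16.7%). POU5F1, the core factor, held 10911 and 11593 in controls and 11109 and 12183 in the knockdown, and NANOG held 174 and 159 against 157 and 172, both overlapping. LIN28A, an RNA-binding protein, held 544 and 466 against 741 and 618 (0.42, standard error 0.14), and STAT3 held 2204 and 2326 against 2694 and 2710 (0.26, standard error 0.10). OTX2 and TBX3, transcription factors, had log2 fold changes of 0.26 and 0.20. Embryonic genome activation markers, 16 tested, had a median of 0.02.

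Trophectoderm markers had 30 tested members, 13 higher and 17 lower, with a median of -0.03 and none passing (limma, 2 lower at an unadjusted p below 0.05). CDX2, the trophectoderm factor, held 654 and 744 in controls and 682 and 624 in the RBPJ knockdown, and TFAP2C held 3658 and 4079 against 3829 and 4061. GATA3, another such factor, was split between the knockdown replicates, at 577 and 515 in controls against 737 and 391. In the NOTCH1 knockdown GATA3 stood at 1018 and 856, and the direct difference of -0.80 passed with the block (limma, adjusted p 0.0238). S100A10 held 809 and 640 against 618 and 496 (-0.38, standard error 0.16). TKDP1, a trophoblast Kunitz protein, held 175 in replicate 1 of the control and 15.3 to 21.4 in the other 5 libraries. After subtracting gene means, the RBPJ knockdown libraries stood at 0.02 and -0.17 for this list, and its sign turned to 0.06 without replicate 2 of that group.

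**Figure D4:**
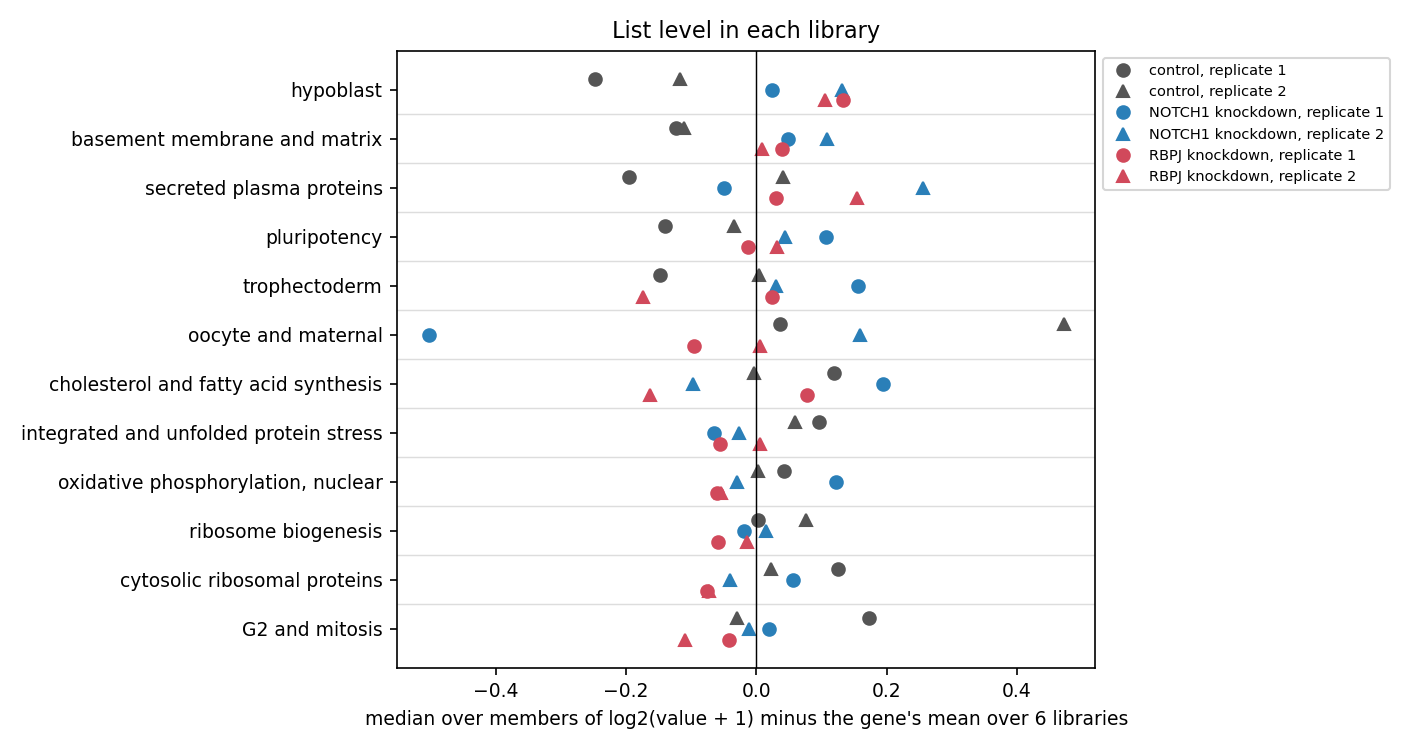
Level of 12 gene lists in each library, as the median over members of log2(value + 1) minus the gene's mean over the 6 libraries (horizontal axis), with 1 list per line, coloured by group, circles for replicate 1 and triangles for replicate 2. The hypoblast list has controls at -0.25 and -0.12 and RBPJ knockdown libraries at 0.13 and 0.11, while the oocyte and maternal list spans -0.50 to 0.47 across libraries.

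Oocyte and maternal transcripts, left from the egg, were spread among replicates. Of 33 tested, 7 were higher and 26 lower by sign in the RBPJ knockdown, with a median of -0.38, and none passed (limma, 2 higher and 1 lower at an unadjusted p below 0.05). Relative to each gene's mean, the list stood at 0.04 and 0.47 in the control libraries, -0.10 and 0.01 in the RBPJ knockdown and -0.50 and 0.16 in the NOTCH1 knockdown. Replicate 2 of the control thus stood above the rest. Without it the median was -0.11, and without replicate 1 of the control it was -0.52. Among the 10 members with a mean of at least 100 it was -0.06. Both RBPJ knockdown libraries lay below both controls for 10 members (30.3%, beside 16.7% of all genes) and above both for 5 (15.2%, beside 15.3%). ZP3, a zona pellucida glycoprotein, held 62.4 and 79.5 in controls and 43.1 and 31.8 in the knockdown (-0.91, standard error 0.36). KHDC3L, of the subcortical maternal complex, held 118 and 250 against 51.6 and 134. KIT, a receptor that embryos also transcribe, was higher, at 805 and 702 against 1110 and 906 (0.41, standard error 0.13). The part of such residual transcripts in the other differences was not tested.

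Ribosomal protein genes were slightly lower almost throughout. Of 77 tested, 75 were lower and 2 higher by sign, with a median log2 fold change of -0.15. Both knockdown libraries lay below both controls for 56 (72.7%, beside 16.7% of all genes) and above both for 0. None passed with or without the block (limma), and 14 were lower at an unadjusted p below 0.05. RPL39 held 3625 and 3810 in controls and 2977 and 3048 in the RBPJ knockdown (-0.30, standard error 0.10), and RPS24 held 4580 and 3848 against 3342 and 3498 (-0.30, standard error 0.11). RPS26 held 6567 and 6217 against 5377 and 5280, and RPL9 held 5546 and 4674 against 4201 and 4161. These genes have processed pseudogenes and their reads may be divided among copies. Their summed scaled count was 533670 to 553183 in the control libraries and 489929 to 497858 in the RBPJ knockdown. The median ran from -0.19 to -0.11 over omitted libraries. Relative to each gene's mean, the list stood at 0.12 and 0.02 in the control libraries, so these differed from each other too. It stood at -0.08 and -0.07 in the RBPJ knockdown and 0.06 and -0.04 in the NOTCH1 knockdown, whose median against control was -0.07. Members of a list can shift together in a library, so counts of members are not counts of independent differences.

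Ribosome biogenesis genes had 50 tested members, 40 lower and 10 higher by sign, with a median of -0.09 and groups that did not overlap for 21 lower (42.0%, beside 16.7% of all genes) and 1 higher (2.00%, beside 15.3%). NOP56, a core protein of box C/D small nucleolar ribonucleoproteins, held 3479 and 3537 in controls and 2951 and 2917 in the knockdown (-0.26, standard error 0.09). UTP4, of the small subunit processome, held 1203 and 1245 against 958 and 1073. Translation factors, 35 tested, had a median of -0.07, with EIF4A2 at -0.21 and EIF5 at -0.19. Nuclear-encoded oxidative phosphorylation genes had 75 tested members, 63 lower and 12 higher, with a median of -0.08, 25 below both controls (33.3%, beside 16.7% of all genes) and 1 above both. COX7B, a subunit of cytochrome c oxidase, held 1792 and 1938 against 1557 and 1595 (-0.24, standard error 0.10). For the 13 mitochondrially encoded genes the median was 0.06, and that sign turned to -0.02 without replicate 2 of the control. None of these lists had a called member in either fit (limma). At an unadjusted p below 0.05 they had 2 (ribosome biogenesis), 0 (translation), 1 (nuclear oxidative phosphorylation) and 0 (mitochondrially encoded).

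Cell cycle genes had medians below 0, and none was called. Of 45 tested G2 and mitosis genes 39 were lower and 6 higher by sign, with a median of -0.16, and 22 lay below both controls (48.9%, beside 16.7% of all genes) and 1 above both. None passed (limma, 5 lower at an unadjusted p below 0.05). PTTG1, securin, held 1068 and 905 in controls and 755 and 715 in the RBPJ knockdown (-0.42, standard error 0.13). CDC25B, a phosphatase that activates CDK1, held 380 and 353 against 332 and 205, CKS1B held 425 and 496 against 327 and 361, and PLK4, the kinase of centriole duplication, held 419 and 298 against 276 and 247. The list stood at 0.17 and -0.03 in controls and -0.04 and -0.11 in the RBPJ knockdown, so its median was -0.05 without replicate 1 of the control. DNA replication genes had 48 tested members, 32 lower and 16 higher by sign, with a median of -0.06 that was -0.01 without replicate 1 of the control. Of them 10 lay below both controls (20.8%) and 6 above both (12.5%). CDC6, a loader of the replicative helicase, held 328 and 308 against 238 and 239, and MCM10 held 1449 and 1504 against 1243 and 1155. POLE2, a subunit of DNA polymerase epsilon, was higher, at 125 and 110 against 170 and 161 (0.50, standard error 0.20).

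The lists of lipid synthesis, of stress responses and of serine and one-carbon enzymes had medians below 0, with members on both sides. Cholesterol and fatty acid synthesis had 35 tested genes, 27 lower and 8 higher, with a median of -0.13 that ran from -0.23 without replicate 2 of the control to -0.04 without replicate 2 of the RBPJ knockdown. ACAT2, the first enzyme of the cholesterol route, held 708 and 686 in controls and 459 and 552 in the knockdown (-0.47, standard error 0.14), and HMGCS1, the synthase after it, held 580 and 467 against 437 and 303. SCAP, the sterol sensor, was higher, at 1301 and 1501 against 1730 and 1754 (0.32, standard error 0.11). FADS2, a fatty acid desaturase, held 525 and 500 in the control, 460 and 333 in the RBPJ knockdown and 689 and 589 in the NOTCH1 knockdown, and the direct difference of -0.70 passed with the block (limma, adjusted p 0.0279).

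Genes of the integrated and unfolded protein stress responses had 33 tested members, 24 lower and 9 higher, with a median of -0.12 and 14 below both controls (42.4%, beside 16.7% of all genes) and 2 above both. HSPA5, the chaperone BiP, held 2955 and 2759 in controls and 2329 and 2317 in the knockdown (-0.30, standard error 0.10), and HERPUD1, of its degradation machinery, held 249 and 329 against 204 and 225. In the NOTCH1 knockdown the list's median against control was -0.13, with HSPA5 at 2159 and 2342 and HERPUD1 at 208 and 214. Serine, glycine and one-carbon enzymes had 24 tested members, 17 lower and 7 higher, with a median of -0.09. SDS, which breaks serine down, was the member that passed with the block, upward. PHGDH, the first enzyme of serine synthesis, held 275 and 305 against 174 and 211 (-0.59, standard error 0.18, limma adjusted p = 0.983). AMT, of the glycine cleavage system, held 3932 and 3875 against 3464 and 2857, and MTR, methionine synthase, held 357 and 436 against 304 and 282.

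**Figure D5:**
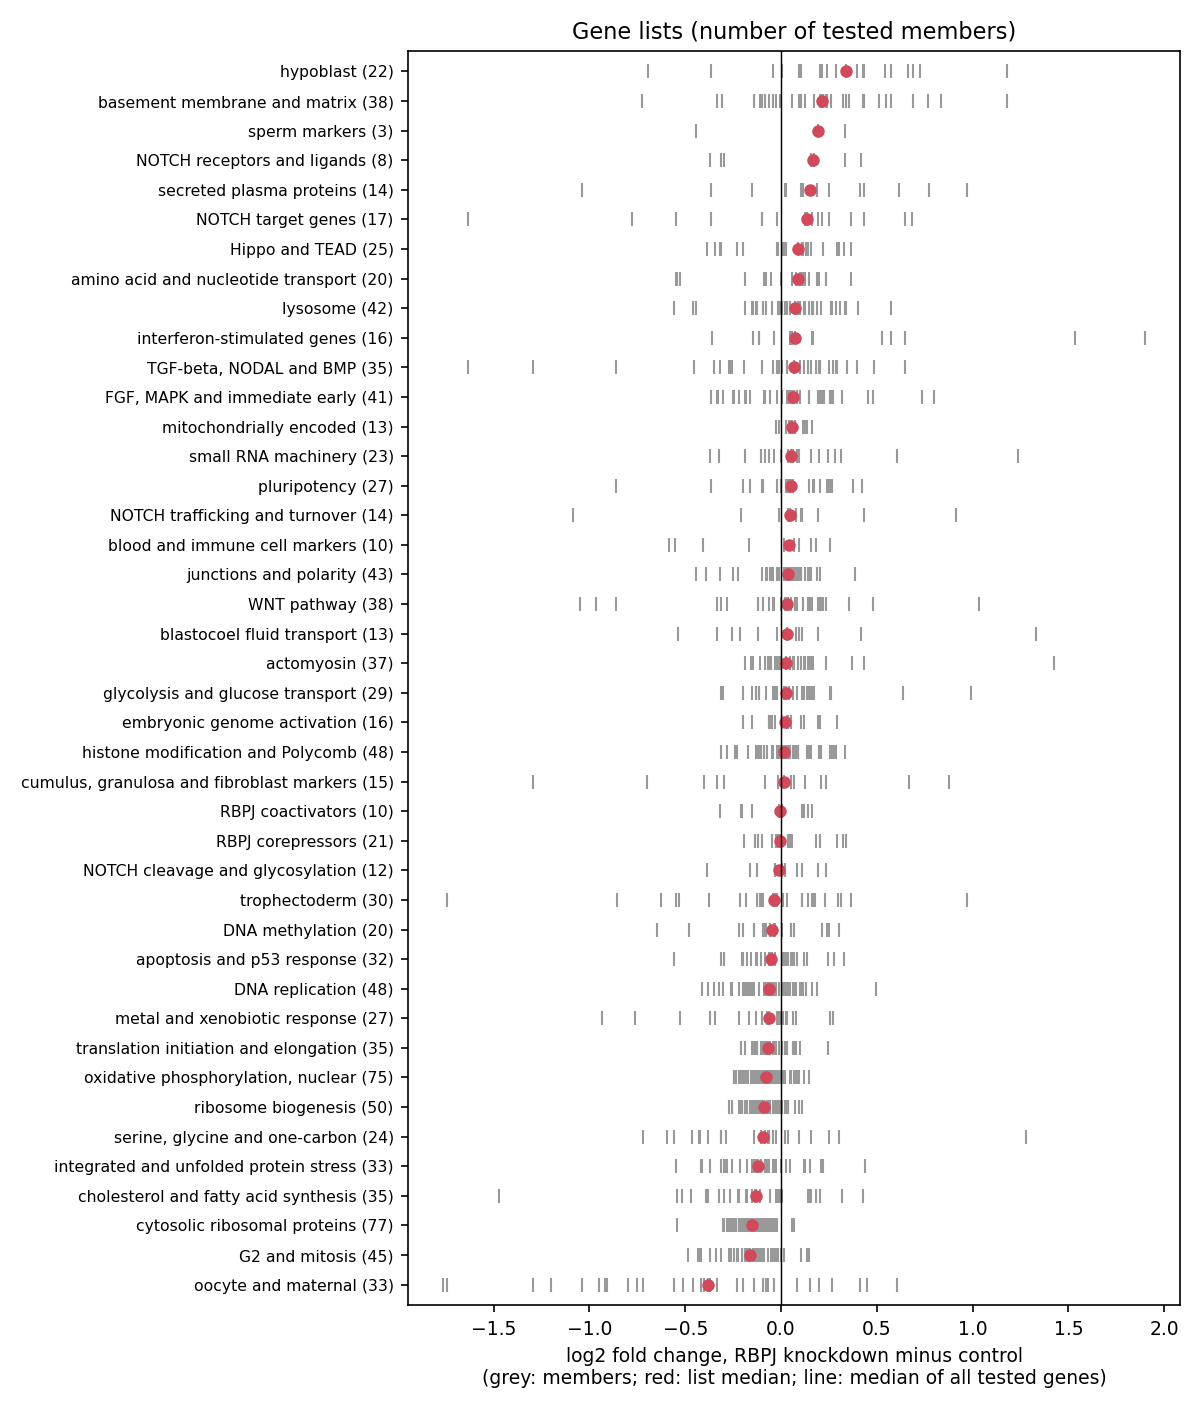
Log2 fold change of RBPJ knockdown against control (horizontal axis) for the tested members (grey ticks) and the median (red points) of 42 gene lists, ordered by median, with the number of tested members in brackets and a line at the median of all tested genes. Hypoblast markers have the highest median, at 0.34, and oocyte and maternal transcripts the lowest, at -0.38.

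In the lists of cell shape and degradation LGMN alone passed, and only with the block. Lysosomal genes had 42 tested members, 28 higher and 14 lower, with a median of 0.07. CTSL, cathepsin L, held 859 and 977 in controls and 1457 and 1009 in the RBPJ knockdown, with replicate 2 only just above the controls. Actomyosin genes, 37 tested, had a median of 0.02 that turned to -0.03 without replicate 1 of the RBPJ knockdown, with 8 members above both controls (21.6%, beside 15.3% of all genes) and 3 below both (8.11%, beside 16.7%). FLNA, the actin cross-linker filamin A, held 2937 and 2389 against 3936 and 3246 (0.43, standard error 0.13), and ACTN1 held 21586 and 23412 against 26436 and 26433 (0.23, and 0.14 after quantile normalization). Junction and polarity genes, 43 tested, had a median of 0.03. CGN, the tight junction protein cingulin, held 1517 and 1620 in the control, 1437 and 1208 in the RBPJ knockdown and 1727 and 1653 in the NOTCH1 knockdown. AMOT, a junction protein of the Hippo pathway, held 702 and 549 against 506 and 488 (-0.32, standard error 0.15), and YAP1, the effector of that pathway, held 471 and 455 against 611 and 527 (0.29, standard error 0.13). Of the blastocoel fluid transporters, 13 tested with a median of 0.03, SCNN1A, a sodium channel subunit, held 234 and 284 against 379 and 313.

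The WNT, FGF and TGF-beta pathways had medians of 0.03 to 0.07 and no called member (limma). Over omitted libraries these medians ran from 0.01 (without replicate 1 of the control) to 0.11 (without replicate 2 of it) for WNT, from 0.01 (without replicate 2 of the RBPJ knockdown) to 0.20 (without replicate 2 of the control) for FGF and MAPK, and from 0.02 to 0.14 (without replicates 1 and 2 of the RBPJ knockdown in turn) for TGF-beta. WNT11, a WNT ligand, held 88.7 and 118 in controls and 50.7 and 47.2 in the RBPJ knockdown (-1.05, standard error 0.28), beside a median of 0.03 over 38 WNT genes. JUN, an immediate early factor, held 462 and 548 against 610 and 782 (0.46, standard error 0.15), and DUSP4, a phosphatase of MAP kinases, held 45.4 and 39.3 against 63.0 and 80.1. FGFR3 was lower, at 1977 and 1860 against 1561 and 1554 (-0.30, standard error 0.11), beside a median of 0.06 over 41 FGF and MAPK genes. SKI, a repressor of SMAD proteins, held 1288 and 1655 against 1779 and 1927, beside a median of 0.07 over 35 TGF-beta, NODAL and BMP genes. At an unadjusted p below 0.05 these lists had 0 higher and 1 lower (WNT), 2 and 1 (FGF and MAPK), and 2 and 1 (TGF-beta, NODAL and BMP).

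Chromatin and RNA regulators were level as lists, with medians of 0.01 over 48 histone-modifying genes, -0.05 over 20 DNA methylation genes and 0.05 over 23 small RNA genes. KDM2B, a demethylase of a Polycomb complex, held 1753 and 1661 in controls and 2165 and 2133 in the knockdown (0.33, standard error 0.10), and MBD1, which binds methylated DNA, held 542 and 515 against 644 and 658 (0.30, standard error 0.12). AGO3, an Argonaute protein, held 15.1 and 9.57 against 23.5 and 37.8, and 54.8 and 46.0 in the NOTCH1 knockdown. Interferon-stimulated genes, a known response to double-stranded RNA, had 16 tested of 39 listed, with a median of 0.07. The xenobiotic cytochromes CYP1A1 and CYP1B1 differed between the controls, CYP1A1 at 470 and 231 against 138 and 274 and CYP1B1 at 227 and 101 against 66.7 and 93.6.

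The remaining lists had no called member in either fit (limma). Hippo and TEAD genes had a median of 0.09 over 25 tested, with 1 higher and 1 lower at an unadjusted p below 0.05. Without replicate 1 of the control that median turned to -0.02, and that of the amino acid and nucleotide transporters to -0.03. With all libraries the transporters had a median of 0.09 over 20 tested, with SLC7A5, a carrier of large neutral amino acids, at 5418 and 6147 in controls and 6743 and 6509 in the knockdown. The median was 0.02 over 29 genes of glycolysis and glucose transport, with HK2, a hexokinase, at 3797 and 4374 against 4784 and 4391. Apoptosis and p53 response genes had a median of -0.05 over 32, with BCL2L1, which protects from cell death, at 1565 and 1600 against 1882 and 1874 (0.25, standard error 0.10). Metal and xenobiotic response genes had a median of -0.06 over 27.

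Markers of cells that a pool might carry beside the embryo's own had overlapping sums. Most tested markers overlapped between the groups too, while a few did not. Of cumulus, granulosa and fibroblast markers 15 of 25 were tested, with a median of 0.01 and a summed scaled count of 1046 to 1199 in controls and 1108 to 1151 in the RBPJ knockdown. Of these 15, 2 lay above both controls (13.3%) and 1 below (6.67%), beside 15.3% and 16.7% of all genes, with DCN, the matrix protein decorin, at 32.7 and 33.8 against 48.4 and 79.0. Blood and immune markers, 10 of 27 tested, summed to 2971 to 4604 and 3355 to 3844, with a median of 0.04 and 2 members below both controls (20%), CD68, a macrophage marker, among them at 77.2 and 76.2 against 54.6 and 47.3. Without replicate 1 of the control the medians were -0.17 for the former list and -0.33 for the latter. Of 14 sperm markers 3 were tested. HAS2, TNFAIP6 and CYP11A1, which define cumulus and granulosa cells, stayed under the minimum mean of 10. All 3 were lower in both RBPJ knockdown libraries than in both controls. HAS2 held 6.33 and 10.9 in controls against 4.61 and 3.08, TNFAIP6 held 5.54 and 15.0 against 4.03 and 1.79, and CYP11A1 held 15.8 and 13.1 against 0.769 and 1.03. Not all members of the list went this way. FOXL2 held 5.29 and 6.53 against 9.23 and 6.17, and HSD3B1 held 16.8 and 7.22 against 15.4 and 21.4, both overlapping. The part of such cells in the other differences was not tested. DCN, CD68 and the values of HAS2, TNFAIP6, FOXL2 and HSD3B1 are given here after they were seen. Among the 10 genes with the largest scaled counts in the control, which also depend on transcript length, log2 fold changes ran from -0.16 for RPS2 to 0.34 for FN1, with ACTB at 0.16 and EEF1A1 at -0.08.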

How the data were processed

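Per the labels' protocols, polyadenylated RNA of pooled embryos was selected with oligo(dT) beads, fragmented and amplified by PCR after a spike-in of GFP and RFP messenger RNA. No scaling by this spike-in was made here, and 0 rows of the table carry its names. Per the submitters' processing notes, Salmon 0.14.1 and DESeq2 were used with the build ARS-UCD1.2, with no role or order given. The deposited table holds 1 signal value for each gene in a library. The values look like read counts that the authors divided by a factor per library, since 82.0% to 84.1% of low values lay within 0.1 of a multiple of a library's step. Whole reads could not be recovered for nearly all genes, so no count test was run. The 2551 unnamed rows (6.20% to 7.22% of the totals) were not analysed, and 57 rows repeated a symbol. There were 0 columns of unmatched samples.

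Values were analysed as log2(value + 1), which understates fold changes at low values, with limma 3.58.1 in R 4.3.3: group means over all 6 libraries, 3 residual degrees of freedom, a variance trend and Benjamini-Hochberg adjustment over 12101 genes at 0.05. The labels number the replicates of each group 1 and 2 and do not say what a number marks. Deviations of same-numbered libraries from their group means correlated across genes at 0.20 (control and RBPJ knockdown), 0.149 (control and NOTCH1 knockdown) and 0.213 (both knockdowns). As all 3 exceeded 0.1, the numbers were taken to pair the libraries. The fit with the number as a block left 2 residual degrees of freedom and is given where it changed a call.

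Genes are named by a rule: RBPJ and NOTCH1, genes called in either fit, the 15 smallest p in each direction, the 10 largest changes in each direction among genes averaging at least 100 whose groups do not overlap, every tested receptor, ligand, cofactor and target of the NOTCH lists, up to 4 members with the smallest p in each other list, the lineage factors, and the 10 largest control means. The comparison, the 42 gene lists and the rule were chosen with earlier results of these data known. Lists are described by counts and medians without a test of the list. Some genes that the rule names are not reported here. No sequences or coordinates are given. Plots came from matplotlib 3.10.9 (Python 3.11.15). The alternatives changed the scaling (quantile normalization or median-of-ratios factors), the pseudocount (0.1 or 10), the filter (a minimum mean of 100 or none), the variance moderation and the libraries fitted (the 4 compared, or 5 of the 6), besides the block.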

Additional observations from a re-analysis of the deposited data

Results flagged for a closer look

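Of the genes named by the rule, 6 differed between the knockdowns in the direct contrast over all 6 libraries, which called 15 genes in all with the block. RBPJ was lower in the RBPJ knockdown than in the NOTCH1 knockdown, with a log2 difference of -1.82 (limma, adjusted p = 0.00332 without the block). The others passed with the block alone. SDS differed by 1.55 (limma, adjusted p 0.000506), LGMN by 0.61 (limma, adjusted p 0.00626) and KRT6A by 1.85 (limma, adjusted p 0.00626). KRT6A held 58.2 and 54.9 in the NOTCH1 knockdown and 121 and 352 in the RBPJ knockdown. GATA3 differed by -0.80 (limma, adjusted p 0.0238) and FADS2 by -0.70 (limma, adjusted p 0.0279), both lower in the RBPJ knockdown than in the NOTCH1 knockdown.

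For 2 more genes both RBPJ knockdown libraries lay below both controls and both NOTCH1 knockdown libraries above them. CGN had a log2 fold change of -0.25 in the RBPJ knockdown and 0.11 in the NOTCH1 knockdown, and EEF1A1 had -0.084 and 0.047. Their direct differences, -0.36 and -0.13, did not pass (limma, adjusted p with the block 0.249 and 0.829).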

How the results depend on the processing

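Without the variance trend limma called 0 genes in the RBPJ knockdown against control (537 at an unadjusted p below 0.05), with RBPJ at -1.96 and an adjusted p of 0.332, and 0 in the direct contrast (542 unadjusted). With the replicate block it called 12 and 15, and of the 32 genes tested singly the block changed the call of 11, all gained, and of no other. Over omitted libraries the calls ranged from 1 to 3 against control. The 3 came without replicate 2 of the control and were RBPJ, TKDP1 (log2 fold change -3.29, limma adjusted p 0.0491) and IGFBP5 (-3.68, limma adjusted p 0.0491), the latter named after its values were seen. In the direct contrast they ranged from 0 without replicate 1 of the NOTCH1 knockdown (228 unadjusted, RBPJ at an adjusted p of 0.0943) to 3 without replicate 1 of the RBPJ knockdown. Where a group keeps 1 library, it is assumed to vary like the others. NOTCH1 ranged from -0.97 to 0.34 over omitted libraries, and its sign turned at 0.18 without replicate 2 of the control and at 0.34 without replicate 1 of the RBPJ knockdown. RBPJ itself ranged from -2.13 to -1.78 over omitted libraries and passed in each.

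Settings of the block fit, which has fewer residual degrees of freedom when libraries are left out, were chosen after seeing the data. It called 12 genes after quantile normalization (11 shared), 14 at a minimum mean of 100 (11 shared), 0 without the trend, 85 with only the 4 libraries compared (12 shared), and 19 to 378 over omitted libraries. Of the 42 list medians 20 kept their sign in every setting, and the 62 values that moved by more than the spread between replicates came mostly from omitted libraries. Without replicate 2 of the control the median was -0.14 for DNA replication, -0.20 for serine and one-carbon enzymes, -0.04 for ribosome biogenesis and 0.13 for pluripotency. Without replicate 1 of the control it was -0.01 for DNA replication and -0.03 for serine and one-carbon enzymes, and it was 0.27 for plasma proteins without replicate 1 of the RBPJ knockdown. Among the 22 others, examples are the turns without replicate 2 of the control for interferon-stimulated genes (-0.04) and DNA methylation (0.04), and without replicate 1 of the RBPJ knockdown for small RNA genes (-0.01) and NOTCH trafficking (-0.01). FN1 stood at 0.09, ACTN1 at 0.14 and ACTB at 0.00 after quantile normalization.

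With 2 libraries a group and 3 residual degrees of freedom, the fit has few libraries to estimate a gene's spread from, and no limit of detection was estimated. Count tests were not run because whole reads were not recovered, and promoter motifs were not run because no promoter sequences were at hand.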

Other observations

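In the direct contrast with the block, 9 further genes passed that the naming rule did not give, and a part of them is named here after their values were seen. EPAS1, a hypoxia-inducible factor, held 154 and 134 in the RBPJ knockdown, 41.3 and 78.6 in the NOTCH1 knockdown and 111 and 108 in the control. SAT1, the enzyme that acetylates polyamines, held 618 and 445, 234 and 275, and 389 and 523 in the same order. DUSP8, a phosphatase of MAP kinases, held 581 and 710, 385 and 439, and 403 and 475. DNMT3A, a DNA methyltransferase, held 2592 and 2107, 3862 and 2854, and 2527 and 2250.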
